A study of Mus musculus with 8 samples.

Results

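The Kupffer cell markers followed here are 7 genes: Clec4f, Vsig4, Folr2, Marco, Cd5l, Timd4 and Cd163. They are genes known for the resident macrophages of mouse liver, and they were found on the arrays by the accession of each probe. They are 7 of the 20145 genes that could be named on the array, and all 7 were among the 14311 genes tested. Each was measured by 1 probe, spotted 1 time per array, so no value below has a second probe to set beside it.

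Kupffer cells are the macrophages that live in the sinusoids of the liver, where they remove microbes, dying cells and old red cells from portal blood. Most are seeded before birth and renew themselves in place. When they are lost, monocytes from the blood can enter the niche and take on part of the same program, with some genes of the identity, such as Timd4, acquired late. Signals from sinusoidal endothelium, stellate cells and hepatocytes, among them Notch ligands, BMPs and TGF-beta, maintain the identity, whereas genes such as Csf1r and the C1q chains are shared by most tissue macrophages.

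The tested RNA was from 8 hepatocellular carcinomas of male miR-122 KO mice, 1 tumor per array in Cy5. On the same array in Cy3 was RNA from the liver of age-matched male mice that carry the miR-122 floxed allele, and both sets were on a mixture of C57BL/6J and 129S/Svj. miR-122 is the main microRNA of hepatocytes; how the allele was deleted and the ages are not given in the sources used here. The series has no tumor-free liver of the knockout and no array with the dyes swapped, so effects of the tumor, of the missing microRNA and of the dye on these genes cannot be told apart. The labels number the tumors and do not say whether tumors shared a mouse or whether the control RNA came from several animals or from a pool.

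Between 38.5% and 51.9% of probes were well above background in the tumor channel, and between 45.1% and 54.3% in the control channel. Tumor 8 was dimmer than the others, with its upper quartile of Cy5 brightness at 213 and those of the others at 378 to 606. On the same array the control channel held skeletal muscle RNA: the 5 tested muscle markers averaged 12.56 on the log2 scale there, against 6.80 to 7.01 in the other controls. In the tumor channel these markers averaged 8.93 on array 8, against 6.82 to 7.02 in the other tumors. The controls of arrays 1 and 2 were closer to each other than any other pair, with an SD of the log2 difference of 0.255 over 23827 probes, against 0.315 to 0.519 for the other pairs. Leaving out array 8, and averaging arrays 1 and 2 as 1 sample, each kept the count of markers called lower at 6 of 7. Markers of hepatocytes, the main cell of the liver, were present on every array in both channels.

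Promoter sequences are shown for the 4 markers that hold GGAAGT in the 250 bases before the transcription start. This is the core bound by PU.1, the ETS factor that macrophages depend on, and by other ETS factors. The sequences are from RefSeq (GRCm38.p6), written 5′ to 3′ on the strand of the gene, and end at the base before the start of the transcript in the promoter table. For Timd4 that start lies inside the gene span given below, whose first base is further upstream. The regions are chr6:83656117-83656366 on the minus strand for Clec4f, chrX:96293439-96293688 on the minus strand for Vsig4, chr7:101857191-101857440 on the minus strand for the upstream start of Folr2, and chr11:46810549-46810798 on the plus strand for Timd4. Capitals mark GGAAGT and, where it follows directly, GAAA, the half-site of IRF factors.
Clec4f: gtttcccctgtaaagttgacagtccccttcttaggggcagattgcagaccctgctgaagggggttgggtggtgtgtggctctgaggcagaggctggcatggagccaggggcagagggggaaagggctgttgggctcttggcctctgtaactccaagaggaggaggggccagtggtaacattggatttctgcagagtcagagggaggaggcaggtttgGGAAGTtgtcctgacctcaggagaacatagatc
Vsig4: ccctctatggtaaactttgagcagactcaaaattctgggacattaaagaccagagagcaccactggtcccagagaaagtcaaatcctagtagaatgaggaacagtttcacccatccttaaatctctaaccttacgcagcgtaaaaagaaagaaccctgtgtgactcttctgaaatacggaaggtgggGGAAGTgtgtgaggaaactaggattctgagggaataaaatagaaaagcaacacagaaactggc
Folr2: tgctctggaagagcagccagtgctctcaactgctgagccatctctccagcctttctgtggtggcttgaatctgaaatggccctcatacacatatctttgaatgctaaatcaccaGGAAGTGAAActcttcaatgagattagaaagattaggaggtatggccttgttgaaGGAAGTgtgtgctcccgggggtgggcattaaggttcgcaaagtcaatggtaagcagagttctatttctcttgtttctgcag
Timd4: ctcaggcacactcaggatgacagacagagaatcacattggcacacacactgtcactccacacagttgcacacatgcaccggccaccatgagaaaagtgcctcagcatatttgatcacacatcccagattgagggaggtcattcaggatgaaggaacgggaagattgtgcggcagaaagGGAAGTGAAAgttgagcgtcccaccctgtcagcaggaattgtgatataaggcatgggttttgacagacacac

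GGAAGT was found, on either strand, in 19.7% of the 32851 promoters of the table. GGAAGT followed directly by GAAA, which was searched after these sequences had been read and whose matches are all matches of GGAAGT too, lay in the promoters of Folr2 and Timd4 and in 0.167% of all. It began 136 bases before the start in Folr2 and 72 bases before it in Timd4. The repeat bound by LXR, AGGTCA 2 times with a gap of 4 bases, was in none of the 8 promoters of the 7 markers and in 0.0152% of all. These are matches of letters in a short window, and no binding was measured.

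The markers were lower in the tumors as a group. Clec4f, Vsig4, Folr2, Marco, Cd5l and Timd4 were called lower. Among those well above background in the tumors, the difference ran from 4.61-fold for Folr2 to 10.1-fold for Clec4f. Timd4 was at least 2.95-fold lower, a bound that does not place it in this order. Cd163 had an adjusted p under the threshold, but its ratio was too small for a call. A call required an adjusted p (limma, Benjamini-Hochberg over all genes tested) under 0.05 and a mean log2 ratio of at least 1 in size, and 850 genes, 5.94% of those tested, were called lower. No marker was called higher (0 also at an unadjusted p under 0.05), as 9.54% of the genes were. At an unadjusted p under 0.05, 31.6% of all genes tested were above 0 and 27.9% below, against which the counts at that p given below are to be read. In 6 of the 7 markers all 8 tumors lay below all 8 controls, which held for 8.36% of the genes tested. Of the 6, Timd4 and Cd163 were tested only because their controls were well above background. Their tumor signals were not so on any array, and their separation follows in part from that filter. In these bulk samples, fewer Kupffer cells and less of each RNA per cell cannot be told apart.

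Levels below are log2 brightness of a channel after normalization and can be compared between tumors and controls of 1 gene only. The summed brightness of a list, given further below, is on the linear scale, so its brightest genes weigh most in it. Clec4f (chr6:83644542-83656116, GRCm38.p6, as for the positions below) encodes a galactose-binding C-type lectin that in mice is close to exclusive to Kupffer cells. Its level was 6.75 at the lowest, 9.64 at the median and 11.14 at the highest in tumors, against 12.03, 12.82 and 13.54 in control livers. Every tumor was below every control, and tumor 3 was far below the other tumors. The mean log2 ratio was -3.33 ± 1.11 (SD, n = 8; 95% interval -4.09 to -2.57), with an adjusted p of 4.83e-05 by limma.

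Vsig4 (chrX:96247201-96293438) encodes the complement receptor CRIg, which binds C3 fragments on bacteria and clears them from the blood. The lowest, median and highest tumor levels were 7.74, 10.47 and 11.45, against 11.98, 12.61 and 12.98 in control livers. The groups did not overlap; tumor 3 was the low point and tumor 1 the high point of the tumors. The ratio was -2.33 ± 1.16 (SD, n = 8; 95% interval -3.12 to -1.54), with an adjusted p of 0.000515 by limma.

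Folr2 (chr7:101839988-101857190), the beta folate receptor of tissue macrophages, was the most even of the brighter markers. Tumors had a lowest level of 7.35, a median of 8.34 and a highest of 9.32, against 10.25, 10.59 and 10.87 in control livers. No tumor reached the lowest control, and tumors 3 and 1 again stood at the 2 ends. Its ratio of -2.21 ± 0.61 (SD, n = 8; 95% interval -2.64 to -1.77) had an adjusted p of 2.06e-05 by limma.

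Marco (chr1:120474538-120505024) encodes a class A scavenger receptor with a collagenous stalk that takes up bacteria and particles. Tumor levels were 7.13 at the lowest, 9.13 at the median and 10.55 at the highest, against 9.61, 12.76 and 14.18 in control livers. Here the controls themselves fell apart: those of arrays 4, 5 and 8 were at 10.41, 10.36 and 9.61, and the other 5 were at 12.67 to 14.18. The groups overlapped, with 5 controls above the highest tumor and 5 tumors below the lowest control, and on array 8 the tumor was above its control. The ratio was -2.83 ± 2.22 (SD, n = 8; 95% interval -4.33 to -1.34), below 0 on 7 of 8 arrays, with an adjusted p of 0.00572 by limma. It was -3.37 without array 8 (adjusted p 0.000978). On arrays 1 to 4, the upper row of the slide, it was -3.44 (adjusted p 0.0188), and on arrays 5 to 8, the lower row, it was -2.22 and not called (adjusted p 0.136).

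Cd5l (chr3:87357881-87371074) encodes a secreted protein, also known as AIM, that macrophages release into the blood and that binds IgM. The lowest, median and highest tumor levels were 9.08, 11.90 and 13.19, against 13.32, 14.24 and 14.65 in control livers. The highest tumor, number 1, came within a small distance of the lowest control, which was that of array 8. The ratio of -2.66 ± 1.52 (SD, n = 8; 95% interval -3.69 to -1.63) had an adjusted p of 0.00105 by limma.

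Timd4 (chr11:46810786-46844333) encodes a receptor for phosphatidylserine, the signal by which macrophages recognise dying cells, and is a gene of long-resident Kupffer cells. Its probe was well above background in 8 of 8 controls and in 0 of 8 tumors. Measured tumor levels ran from 5.58 over a median of 5.98 to 6.43, against 7.28, 7.74 and 8.35 in control livers, with no overlap. The difference is therefore a bound: Timd4 was at least 2.95-fold lower in tumors (adjusted p 1.49e-05 by limma). This bound sets the mean of the 8 controls against, on each array, the dim signal or the faintest probe that passed the background flag, whichever was higher. It is open to dye bias. The measured log2 ratio of Timd4 was -1.77, and its size turned on the processing, from -4.88 to -1.70 over 23 alternatives. Timd4 was called lower under all of them.

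Cd163 (chr6:124304636-124330529), the receptor that clears hemoglobin bound to haptoglobin, was close to background. Its probe was well above background in 7 of 8 controls and 0 of 8 tumors. Tumor levels were 5.90, 5.99 and 6.26 at the lowest, median and highest, against 6.38, 6.62 and 7.09 in control livers. The readings did not overlap, but those of the tumors and the lowest control, that of array 5, were not well above background. The measured ratio of -0.67 ± 0.31 (SD, n = 8; adjusted p 0.000884 by limma) was below the size of a call, and the bound was at least 1.45-fold lower in tumors. Its size turned on the background correction: the ratio was -1.14 with an offset of 16 in place of 50 and -2.98 with the scanner's processed signals, and Cd163 was called lower under both.

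**Figure D1:**
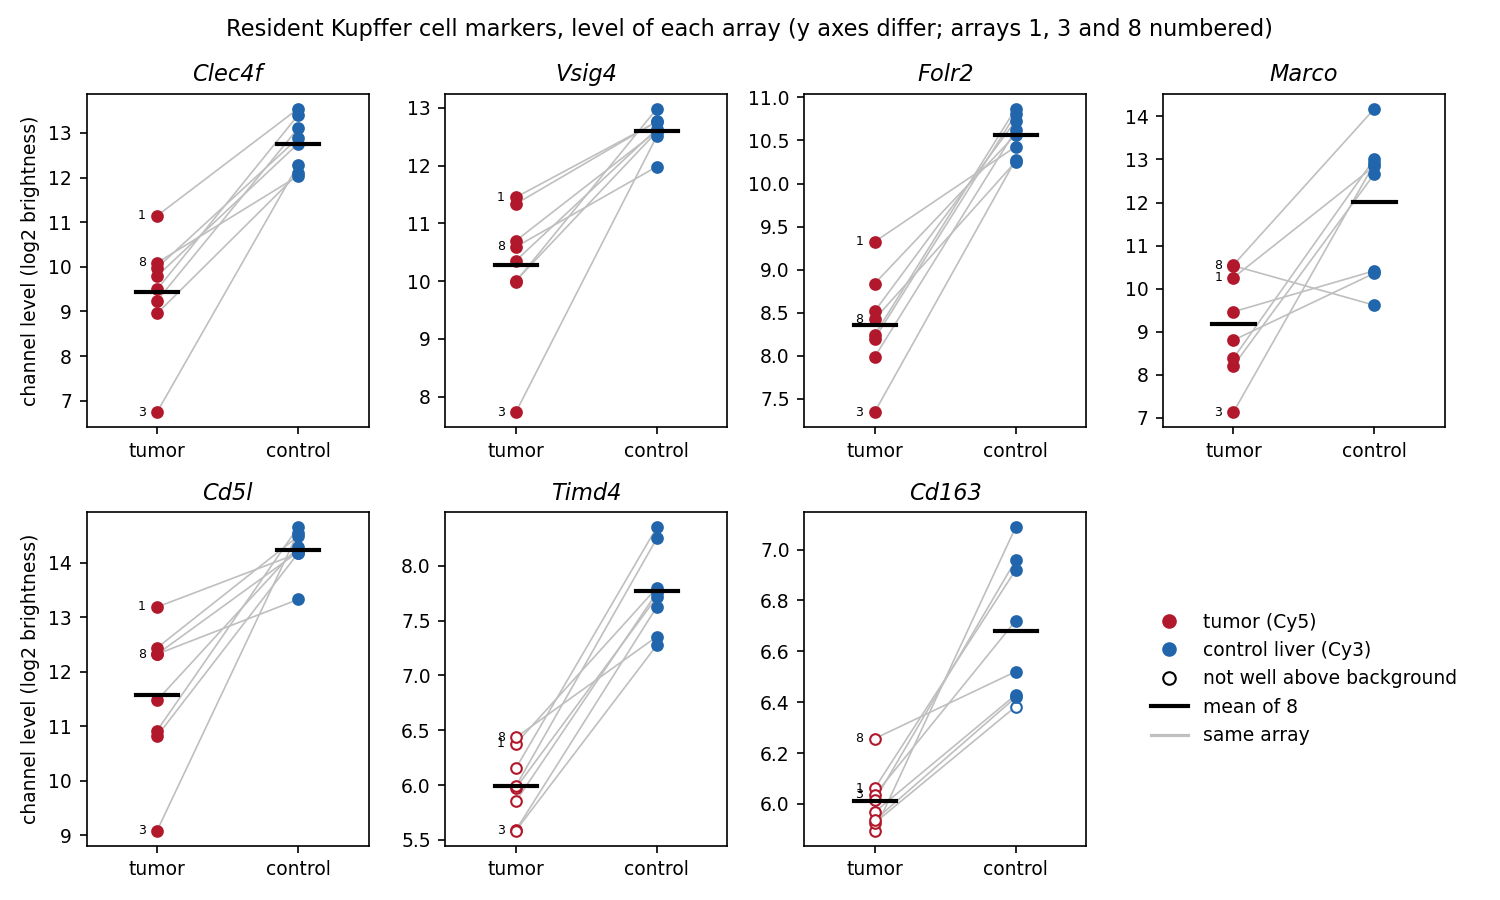
Log2 brightness of each marker in the tumor (left) and control (right) channel of the 8 arrays, with lines joining the channels of an array, black bars at the means and open points not well above background. Tumors lie below controls without overlap in 6 markers; in Marco the controls of arrays 4, 5 and 8, at 10.41, 10.36 and 9.61, lie among or near the tumors.

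The tumors differed in how low the markers were. In tumor 3 the log2 ratios were -5.54 for Clec4f, -4.78 for Vsig4, -5.78 for Marco and -5.47 for Cd5l, the lowest of the 8 tumors for each of these genes and, at -2.93, for Folr2. Timd4 and Cd163 give no order of the tumors, since their tumor signals were not well above background on any array. At the other end, tumor 1 had ratios of -0.98 for Cd5l, -1.10 for Folr2 and -1.31 for Vsig4, the smallest differences for those 3 genes. Tumor 8, the dim one, had the smallest for Clec4f (-1.94), and for Marco it was 0.92. The part of the dim signal and of the muscle RNA of array 8 in these values was not tested.

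**Figure D2:**
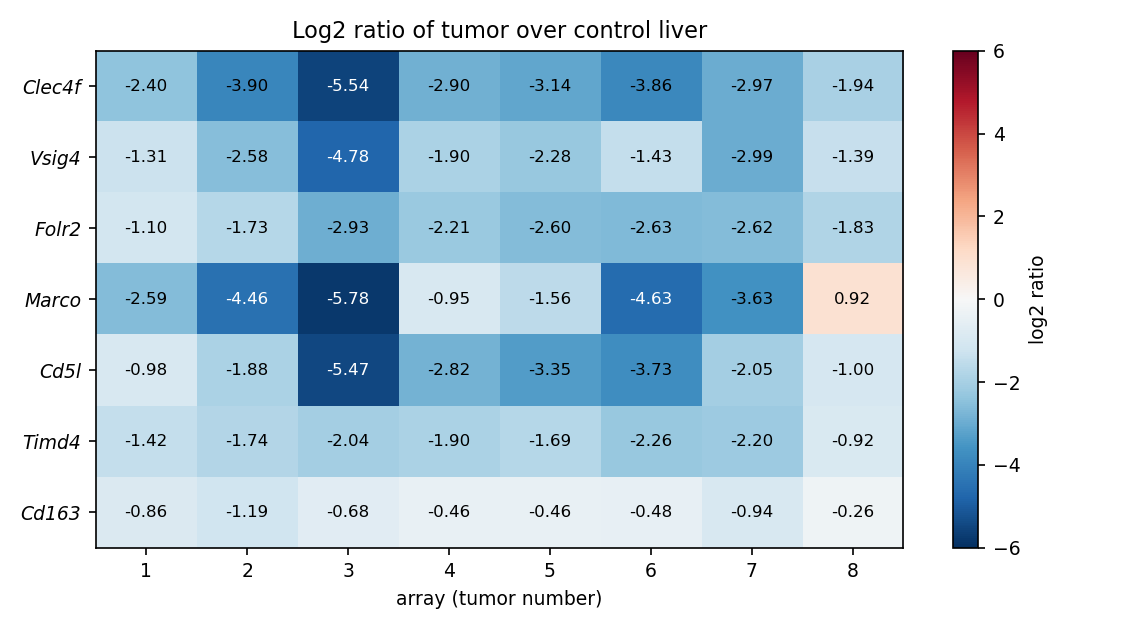
Log2 ratio of tumor over control liver for each marker (rows) on each array (columns), with blue for lower and red for higher in the tumor. Array 3 holds the lowest value of Clec4f, Vsig4, Folr2, Marco and Cd5l, and the 0.92 of Marco on array 8 is the 1 value above 0.

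For 4 of the 7 markers the tumors were more spread than the controls. The SD of the log2 level was 1.27 in tumors and 0.58 in controls for Clec4f, 1.16 and 0.29 for Vsig4, and 1.29 and 0.41 for Cd5l. Folr2 had 0.58 in tumors and 0.23 in controls. Tumor 3 carried much of this: without it the tumor SD was 0.71 for Clec4f, 0.58 for Vsig4, 0.88 for Cd5l and 0.45 for Folr2, each still above that of the 8 controls. For the other 3 the controls were more spread. Marco had 1.24 in tumors and 1.63 in controls, with its controls split as described above, Timd4 had 0.32 and 0.38, and Cd163 had 0.11 and 0.28, both with tumor signals near background. No test of these spreads was made.

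The genes shared by most macrophages had a median ratio above 0, and the markers had one below 0. Of 13 tested pan-macrophage genes, 0 were called lower and 2 higher by limma, as 5.94% and 9.54% of all genes tested were. A count of 0 among 13 is near that share. At an unadjusted p under 0.05, 1 lay below and 9 above 0. Their median log2 ratio was 0.51, against -2.33 for the 7 markers and 0.03 for all genes tested. Mpeg1, which encodes a pore-forming protein of phagocytes, was called higher at 1.24 ± 0.44, and Laptm5, a lysosomal membrane protein of blood cells, at 1.26 ± 0.63 (SD, n = 8 each; adjusted p 0.000112 and 0.000628). Adgre1, the gene of a classical surface antigen of mouse macrophages, was at 0.33 and Csf1r, the receptor that macrophages need for survival, at 0.07. C1qa, C1qb and C1qc, the chains of the first complement component, were at 0.51, 0.51 and 0.37. Lyz2 was at 0.75, Aif1 at 0.77, Fcgr1 at 0.90 and Tyrobp at 0.92, while the uptake receptor gene Mertk was at -0.37; none of these was called. Without array 8, 6 of the 13 were called higher. Mertk was the 1 gene of the list below 0 with an adjusted p under 0.05 (0.00914).

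Whether the markers were lower relative to these macrophage genes was tested by taking the mean ratio of the 13 genes from every gene on each array and fitting all genes again. On this scale the median of all genes tested moves to -0.49, and 17.8% of genes were called lower and 4.26% higher. All 7 markers were called lower by limma, of which Timd4 and Cd163 have tumor signals not well above background, so that their differences are measured values without an exact size. Clec4f was -3.85 ± 1.27 relative to the macrophage genes (adjusted p 4.53e-06) and Folr2 -2.73 ± 0.67 (adjusted p 1.24e-06; SD, n = 8 each). Marco was at -3.36, Cd5l at -3.18, Vsig4 at -2.85 and Timd4 at -2.29, with adjusted p-values of at most 0.000818. The measured value of Cd163, -1.19 ± 0.60 (SD, n = 8; adjusted p 0.000277), was just past the size of a call, which the plain ratio was not. Array 8 was the highest of the 8 on this scale for each of the 5 markers well above background in the tumors, at 1.16 for Marco. With arrays 5 to 8 alone Cd163 was -0.92 and not called.

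**Figure D3:**
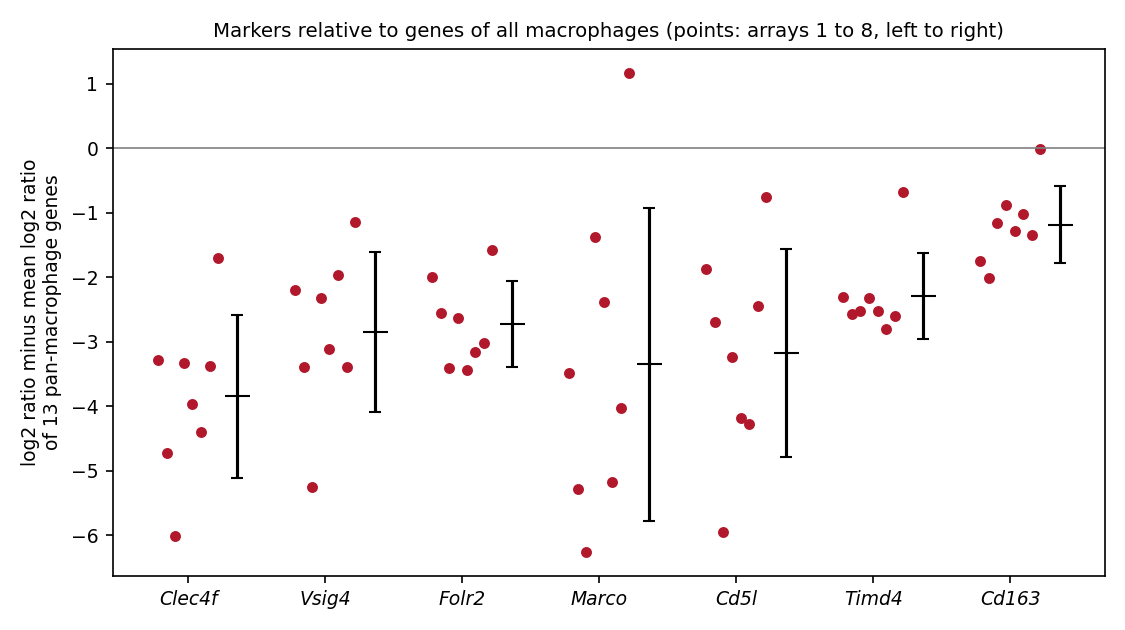
Log2 ratio of each marker minus the mean log2 ratio of 13 pan-macrophage genes on the same array (points, arrays 1 to 8 from left to right), with the mean and SD beside them. The values are below 0 apart from Marco on array 8, at 1.16, and array 8 is the highest point of Clec4f, Vsig4, Folr2, Marco and Cd5l.

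Other genes of Kupffer cells fell in part. Of 15 tested, 7 were called lower and 0 higher by limma (9 below and 0 above 0 at an unadjusted p under 0.05), with a median of -0.99, against 0.03 for all genes; Kcna2 was not tested. Fcna, which encodes a ficolin that starts the lectin pathway of complement, fell to levels of 7.98 to 10.11 in tumors, against 11.08 to 12.07 in control livers, a log2 ratio of -2.47 ± 0.58 (SD, n = 8; adjusted p 8.67e-06). Clec1b, the podoplanin receptor CLEC-2, had 7.58 to 9.42 in tumors and 10.11 to 10.70 in control livers, a ratio of -1.60 ± 0.62 (SD, n = 8; adjusted p 0.000143). In both genes every tumor was below every control. Fabp7, a fatty acid binding protein, was called lower at -2.16, the complement gene C6 at -2.10, the prostaglandin-degrading enzyme gene Hpgd at -1.71, Pcolce2 at -1.37 and Id3, a transcriptional regulator needed for Kupffer cell development, at -1.10. C6 and Hpgd are not restricted to macrophages. For the whole list, called or not, the cells that carried the RNAs were not tested.

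The other 8 of these genes were not called. Cxcl13, a chemokine for B cells, was at -0.99 (adjusted p 0.0269) and Nr1h3, which encodes LXR-alpha, the nuclear receptor behind much of the Kupffer cell program, at -0.53 (adjusted p 0.00546). Spic, the heme-induced factor of iron-recycling macrophages, was at -0.31, the iron exporter gene Slc40a1 at -0.28, Siglec1, which encodes CD169, at -0.19 and Id1 at -0.14. Il18bp was at 0.23 and Cdh5, a gene of endothelium that mouse Kupffer cells also transcribe, at 0.49.

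Most genes of the list of monocytes and recruited macrophages went the opposite way. Of 15 tested, 11 were called higher and 0 lower by limma (13 above and 0 below 0 at an unadjusted p under 0.05), with a median of 2.14; Ly6c2 was not named on the array. Trem2, a lipid receptor of macrophages that enter damaged tissue, had levels of 8.64 to 12.05 in tumors and 7.64 to 9.19 in control livers, a log2 ratio of 2.75 ± 1.02 (SD, n = 8; adjusted p 9.21e-05), with some overlap of the groups. The fractalkine receptor gene Cx3cr1 was called higher at 3.24, Chil3 at 3.10, the galectin gene Lgals3 at 2.63 and Ccr2, the receptor by which monocytes leave the marrow, at 1.53. Vcan (-0.01) and Itgam (0.20) were not called. Tumor 8 was uneven: Cx3cr1 was at -0.65 and Ccr2 at -0.25, with tumor signals not well above background, and Lgals3 at 4.15. The list median on array 8 was 0.45. Which cells carried the RNAs of this list was not tested. The summed brightness of the list ranged from 54610 to 112407 in tumors and from 10160 to 30820 in control livers. Fabp5, its brightest gene, averaged 14.42 in tumors and 12.73 in control livers on the log2 scale. With arrays 5 to 8 alone 7 of the 15 were called. Neutrophil genes moved too, with 3 of 7 called higher (S100a9 at 2.42, S100a8 at 2.31, Retnlg at 1.40), all 7 above 0 at an unadjusted p under 0.05, a median of 0.95 and a summed brightness of 23155 to 60255 in tumors and 14754 to 25776 in control livers. Csf3r, the brightest of the 7, averaged 14.67 in tumors and 14.00 in control livers on the log2 scale and was not called. With arrays 5 to 8 alone 0 of the 7 neutrophil genes were called, and with an offset of 16 it was 5. Of 7 lymphocyte genes 0 were called by limma, with a median of 0.16 and 3 at an unadjusted p under 0.05, as 59.5% of all genes tested were. The part of recruited cells in the ratios of the markers was not tested.

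Genes of sinusoidal endothelium, which lines the space where Kupffer cells sit, were lower as well. Of 12 tested, 8 were called lower and 0 higher by limma (9 below and 0 above 0 at an unadjusted p under 0.05), with a median of -1.36. Clec4g, an endothelial lectin, was at 8.10 to 11.48 in tumors and 12.70 to 13.71 in control livers, a log2 ratio of -3.13 ± 1.06 (SD, n = 8; adjusted p 5.49e-05), and no tumor reached a control. Oit3 was called lower at -2.80, Bmp2, an endothelial signal to hepatocytes for iron control, at -2.51 and the nuclease gene Dnase1l3 at -2.23. Pecam1 (0.24) and Lyve1 (0.43) were not called. Summed over the list, brightness was 9060 to 20771 in tumors and 32536 to 43591 in control livers. With arrays 1 to 4 alone 5 of the 12 were called. Hepatocyte markers were lower in part, with 3 of 7 called, 6 below 0 at an unadjusted p under 0.05, a median of -0.85 and a summed brightness of 350932 to 592183 in tumors and 711315 to 984630 in control livers; Alb was at -0.29 and not called, and with arrays 5 to 8 alone 1 of the 7 was called. Of 8 stellate cell markers 2 were called higher, Col1a1 at 3.65 and Pdgfrb at 1.45, and 1 lower, Ecm1 at -1.53. At an unadjusted p under 0.05, 2 of the 8 lay above and 4 below 0. Of 5 genes of serosal and peritoneal macrophages 0 were called by limma, with a median of 0.09 and 2 at an unadjusted p under 0.05. The part of these cell types in the ratios of the markers was not tested.

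**Figure D4:**
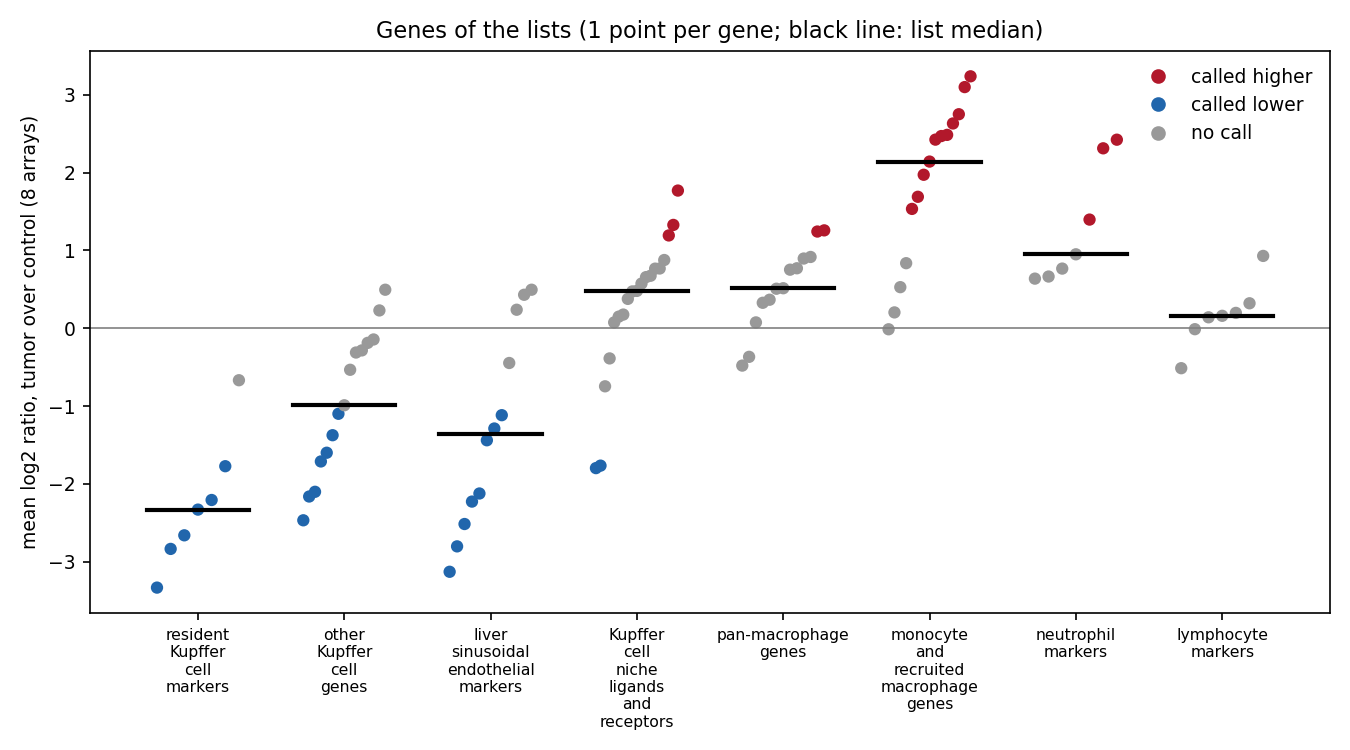
Mean log2 ratio of tumor over control liver (y axis, 8 arrays) of each tested gene of 8 lists (x axis), coloured by call, with a black line at the list median. The Kupffer and sinusoidal endothelial lists have medians of -2.33, -0.99 and -1.36, and the recruited macrophage list has 2.14.

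Ligands and receptors of the Kupffer cell niche went both ways, with more of them above 0. Of 19 tested, 3 were called higher and 2 lower by limma, as 9.54% and 5.94% of all genes tested were. At an unadjusted p under 0.05, 11 lay above and 3 below 0, against 31.6% and 27.9% of all genes tested. The list median was 0.48, and by array it was above 0 on all 8, at 0.04 to 0.79. Bmp10 was not tested, and with arrays 1 to 4 alone 6 were called higher. Gdf2, which encodes BMP9, the stellate cell ligand that Kupffer cells need, had levels of 7.42 to 9.92 in tumors and 9.61 to 10.99 in control livers, a log2 ratio of -1.80 ± 0.88 (SD, n = 8; adjusted p 0.000492), with overlap. Notch1 was called lower at -1.76, and the TGF-beta receptor gene Tgfbr2, at 1.77, and Vcam1, the adhesion molecule of the niche, at 1.33 were called higher. The ligands of the macrophage growth factor receptor, Csf1 (0.77) and Il34 (0.66), were not called, nor were Tgfb1 (0.67) and the Notch ligand gene Dll4 (0.57). Csf1 had an adjusted p of 0.000573 and lay under the size of a call.

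Partners of individual markers were read in the same fit. For Cd163, the ligand gene Hp was at -0.23, Hmox1, the enzyme that opens heme, at 0.08 and Lrp1, the hemopexin receptor, at -0.94; none was called. In the list of hemoglobin and iron genes 1 of 13 was called higher, the phagosomal iron transporter gene Slc11a1 at 2.22, and 1 lower, the hepcidin gene Hamp at -2.48, with a median of 0.10. Both counts are near the shares of all genes tested, 9.54% higher and 5.94% lower, beside which the next 2 lists are to be read too. At an unadjusted p under 0.05, 6 of the 13 lay above and 3 below 0. For Vsig4, the ligand gene C3 was at -0.12 and not called, whereas 5 of the 12 complement genes were called lower, among them C8a at -3.69, C6 at -2.10 and Cfd, whose measured ratio of -2.54 rests on a probe well above background in 1 of 8 tumors. The 1 complement gene called higher, Itgax at 2.14, encodes a C3 receptor chain and is also in the recruited list. For Timd4 and Marco, 4 of 15 genes of dying cell uptake and scavenging were called higher (7 above and 3 below 0 at an unadjusted p under 0.05). These were the bridging protein genes Mfge8 at 3.29 and Gas6 at 1.16, the receptor gene Axl at 1.14 and Cd36 at 1.30; with arrays 5 to 8 alone 1 gene of the list was called higher. The endothelial receptor gene Stab2, at -1.44, and Mrc1, the mannose receptor, at -1.22, were called lower. The median was 0.39 for this list and -0.45 for the complement genes, of which 2 lay above and 6 below 0 at an unadjusted p under 0.05.

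By the pattern over the 8 arrays, the genes most like Clec4f were Rsph3a, Oxct2a, Arid3b, Tcf7 and Dpp4, with Pearson r of 0.956, 0.955, 0.948, 0.943 and 0.933 among 14304 genes compared. The arrays share their design, dye and slide, and with 8 points these are descriptions. Of the 5, Dpp4 was called lower, at -2.91 ± 0.86 (SD, n = 8; adjusted p 2.62e-05 by limma). The other 4 had mean ratios between -0.29 and 0.19, so they shared the linear pattern over the arrays with Clec4f and not its size. Oxct2a was near background, well above it in 4 tumors and 1 control.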

How the data were processed

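Tumor RNA (Cy5) and control liver RNA (Cy3) were hybridised together on each of 8 arrays. The deposited scanner files hold the median intensity of every spot and of its surroundings, and a processed intensity that was background-subtracted and dye-normalized per the file headers. The deposited log10 ratio is red over green; it was 0 at 24.2% to 30.4% of spots and otherwise differed by at most 4.09e-07 from the processed signals. Agilent Feature Extraction was version 10.9 per the submitters' processing notes and 10.9.1.1 per the file headers.

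Background was corrected with normexp (offset 50), followed by loess within each array in which control and outlier spots had weight 0. The tools were limma 3.58.1 and data.table version 1.17.8 under R 4.3.3. Channel levels were taken after Aquantile normalization. No spot was saturated. Of 55681 probes, 26582 were named by accession through RefSeq (GRCm38.p6). Probes entered the test when 4 or more arrays had them well above background in either channel, and a gene was represented by its brightest tested probe. The log2 ratio was tested against 0 with limma (lmFit, eBayes), adjusted by Benjamini-Hochberg over all 14311 genes, and the same was done after the mean of 13 pan-macrophage genes was taken off per array. The p-values measure the spread of the 8 ratios, in which both the tumors and the control channel vary. If control RNA was pooled, spread between control animals is left out. The control channel was not alike on every array, since that of array 8 held muscle RNA. The number of arrays limits the precision.

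The markers and gene lists were chosen with earlier results of these data known. Named are the markers, all tested genes of the other Kupffer and pan-macrophage lists, up to 4 called genes with the largest and 2 uncalled with the smallest ratios of other lists, partners fixed by role, and the 5 genes most like Clec4f; 1 gene under this rule is not reported here. Alternatives were other background corrections, scalings, filters, probe rules and variance models, and each array left out. Each row of the slide alone, the median of the pan-macrophage genes and spreads without tumor 3 were chosen after seeing the data. The procedure was tested on simulated data.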

Additional observations from a re-analysis of the deposited data

Results flagged for a closer look

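A single array was set against the other 7 in 21 tests, over the tumor level, control level and ratio of each marker. In 4 of them 1 array stood apart, where chance gives about 1 in 20 per test. The tests are not independent, since each ratio is the tumor level minus the control level and all share the same arrays. The count was therefore not tested against that rate. The Vsig4 level of tumor 3 was 7.74, against 9.99 for the next tumor. The control of array 8 stood apart in 2 markers: Vsig4 was at 11.98, against 12.51 for the next control, and Cd5l at 13.32, against 14.17. The Cd163 level of tumor 8 was 6.26, against 6.06 for the next, with neither well above background. Array 8 is the one with the dim tumor channel and with muscle RNA in its control; the part of these in the 3 values was not tested.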

How the results depend on the processing

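In the plain ratio, Clec4f, Vsig4, Folr2, Cd5l and Timd4 were called lower under all 23 alternatives and Marco under 22, the exception being the lower row of the slide alone, at -2.22; no marker changed direction under them. Cd163 had no value where a probe had to be well above background on all 8 arrays. With each array left out in turn, Clec4f stayed between -3.53 and -3.02 and Marco between -3.37 and -2.41. The count of markers called lower was 7 with an offset of 16 and with processed signals, where Cd163 was called, and 5 in the lower row alone. Pan-macrophage genes called higher (2) became 4 with processed signals and with array weights, 1 with the mean of all probes, 5 without arrays 7 and 8, 6 in the upper row and 1 in the lower; with each array left out the count was 2 to 6. Those called lower (0) became 1 without arrays 7 and 8 and in the upper row. Sinusoidal genes called lower (8) became 5 in the upper row, and recruited genes called higher (11) became 7 in the lower row. The causes were not tested; each row holds 4 arrays. The ratios tested already pair each tumor with the control on its array. Beyond that, no paired analysis was possible because the labels give 1 group of numbered arrays and no second group sharing the numbers. Dim signal limits Timd4 and Cd163 to bounds.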
